A study of Homo sapiens with 15 samples.

Results

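The AP-1 subunits and EGR1 are transcription factors of the early response to growth factors and stress. The 8 genes described here were taken by symbol from 26485 symbols that both count tables hold: the Fos family genes FOS, FOSB, FOSL1 and FOSL2, the Jun family genes JUN, JUNB and JUND, and EGR1. All were measured by RNA sequencing in PSN-1, an established human line of pancreatic ductal adenocarcinoma (PDAC) cells, in a pair of experiments of 72 h. In the siRNA experiment, cells carried siRNA against MondoA (siMondoA; gene symbol MLXIP), siRNA against its partner MLX (siMLX) or a control siRNA (siControl). In the drug experiment, cells received SBI-477, which the labels call a MondoA inhibitor, or the vehicle DMSO. Each of the 5 groups has 3 libraries, and 15 were sequenced in all. Every group is the same cell line with no introduced allele, the siRNA sequences and the SBI-477 dose are not given in the sources used here, and no label says that replicates were separate cultures, so p-values measure the spread between these libraries.

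AP-1 is a dimer of basic leucine zipper proteins. Jun proteins can pair with each other or with a Fos protein, while Fos proteins need a Jun partner, and the dimer binds the sequence TGANTCA or the related cyclic AMP response element (CRE) TGACGTCA. EGR1 is a zinc finger factor that is not a part of AP-1 but is switched on by many of the same signals, through serum response factor (SRF) at CArG boxes. In tumours with an active Ras pathway, FOSL1 (the protein FRA-1) is known as a gene kept on by ERK signalling, and JUNB and JUND have been described as weaker activators than JUN in several settings.

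The sequences before the start sites are shown first because the members share a motif there. RefSeq promoters on GRCh38.p14 matched 7 of the 8 genes, and FOSL1, at chr11:65892049-65900573 on the minus strand in GENCODE v29 (GRCh38), is named only. The 250 bases before each start were searched on both strands for TGANTCA, TGACGTCA, its first bases TGACG (read as CGTCA on the other strand, and also a part of TGACGTCA), the JUN type octamer TGACATCA, CArG boxes (CC, 6 bases of A or T, GG), the E-box CACGTG that MondoA and MLX family factors can bind, and the EGR site GCGNGGGCG. Capitals mark the motifs in the stretches below, each written 5′ to 3′ on the strand of its gene.
EGR1: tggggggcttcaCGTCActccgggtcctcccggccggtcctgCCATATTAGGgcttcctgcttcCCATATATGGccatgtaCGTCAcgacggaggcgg
JUN: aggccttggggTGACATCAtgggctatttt
JUND: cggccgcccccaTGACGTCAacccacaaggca
FOS: tggttgagcccgTGACGtttacactcatt
FOSB: gcaaggggcgggTGACGtaagcagggggg
FOSL2: ggagtctggggtTGACGtgagtgaatcca
JUNB: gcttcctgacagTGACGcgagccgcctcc

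The stretch of EGR1 lies at chr5:138465332-138465429 on the plus strand. It holds a pair of CArG boxes, at 105 to 96 and at 83 to 74 bases before the start, and the 5 base motif TGACG, read on the other strand, on either side of them. The stretch of JUN (chr1:58784096-58784125, minus strand) holds TGACATCA at 67 to 60 bases before the start, and that of JUND (chr19:18281803-18281834, minus strand) holds the full CRE. Those of FOS (chr14:75278752-75278780), FOSB (chr19:45467924-45467952), FOSL2 (chr2:28392780-28392808) and JUNB (chr19:12791337-12791365), all on the plus strand, hold TGACG. GENCODE v29 starts FOS, FOSL2 and JUN further upstream, so their stretches overlap the gene as drawn there. TGACG was found in all 7 matched members, in JUN at 123 to 119 bases before the start, and in 21.7% of 27305 RefSeq promoters. Within these 250 bases, a CArG box was found in EGR1 alone among the 7 and in 1.14% of all promoters, TGACATCA in JUN alone and in 2.45%, and TGACGTCA in JUND alone and in 1.77%. Bases further upstream were not searched, so the other members may hold such sites there. EGR1 also held an EGR site, at 198 to 190 bases before its start, as did 8.25% of all promoters. No member held TGANTCA (6.6% of all promoters) or CACGTG (6.49%) in this window. These matches describe letters and are not evidence of binding.

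The libraries held 11227343 to 14731691 counts in the siRNA experiment and 23315440 to 30480362 in the drug experiment. Levels are given in CPM, the count scaled to the library total after adjustment by a normalization factor (TMM). The floor and the marker sums below are scaled to the library total alone. A floor of 3 counts stood at 0.204 to 0.267 CPM per siRNA library and at 0.0984 to 0.129 CPM per drug library, for counting error only. All 8 members passed the filter on low counts in both experiments. MLXIP fell by 1.95 ± 0.17 on the log2 scale after siMondoA (edgeR adjusted p = 0.000118), and MLX fell by 2.63 ± 0.18 after siMLX (adjusted p = 8.21e-05). The 5 epithelial markers summed to 1090 to 1800 CPM after siMondoA, 1690 to 2220 CPM after siMLX and 1630 to 2480 CPM in siControl. They summed to 1060 to 1940 CPM after SBI-477 and 1020 to 1680 CPM in DMSO. Of these markers, CDH1 rose by 2.38 ± 0.37 after siMondoA (adjusted p = 0.00215). KRT8, KRT18 and KRT19 had log2 fold changes of -0.44, -0.4 and -0.78 there, which did not pass. Of 5 leukocyte markers 3 stood below 1 CPM in every group, PTPRC and CD3E among them, and of 4 endothelial markers 2 did (CDH5 and VWF). The leukocyte markers summed to 53 to 75.5 CPM after siMondoA, 43.9 to 72.8 CPM after siMLX and 32.7 to 43.3 CPM in siControl, and the endothelial markers to 25.9 to 37.5 CPM after siMondoA, 27.1 to 37.2 CPM after siMLX and 21.1 to 25 CPM in siControl, with no overlap of either siRNA group with siControl. CD68, a macrophage marker, rose by 1.06 ± 0.16 after siMondoA (adjusted p = 0.00178), and KDR, a VEGF receptor gene, rose by 0.94 ± 0.22 after siMondoA (adjusted p = 0.0124) and by 1.4 ± 0.22 after siMLX (adjusted p = 0.00551). The 5 fibroblast markers summed to 496 to 795 CPM after siMondoA, 574 to 776 CPM after siMLX and 534 to 681 CPM in siControl, and to 82.9 to 237 CPM after SBI-477 and 46.1 to 308 CPM in DMSO, with none at 0 counts in a group. Single fibroblast markers moved in opposite directions. After siMondoA, COL3A1 rose by 0.54 ± 0.15 (adjusted p = 0.0263) and PDGFRB fell by 1.93 ± 0.24 (adjusted p = 0.000782). After siMLX, 2 of the 5 were called higher and 1 lower. The part of all these markers in the results was not tested.

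Several libraries stand apart. The median of 20 integrated stress response genes, on a log2 scale set to the siControl mean, was 2.56 in siMLX replicate 2, against 0.19 and 0.25 in siMLX replicates 1 and 3. The siMondoA libraries stood at 1.54, 2.85 and 2.45. In the drug experiment, the authors' deposited fold changes were matched only when DMSO replicate 2 and SBI-477 replicate 2 were exchanged (median absolute log2 difference 1.89e-07 over 13086 genes, against 0.196 as labelled). Libraries are named here by their labels, and results that rest on these libraries are given with and without them.

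After siMondoA, 6 of the 8 transcripts were higher than in siControl. EGR1 was 7.14-fold and FOSL1 4.04-fold higher, JUN 3.66-fold, JUNB 2.45-fold, FOSL2 1.79-fold and FOSB 1.73-fold. FOS and JUND did not pass the test, and no member was lower. For scale, 14.2% of the 13001 genes tested were called higher and 12.9% lower (edgeR quasi-likelihood test with Benjamini-Hochberg adjustment, adjusted p under 0.05). The median log2 fold change was 1.06 over the members and 0 over all genes.

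**Figure D1:**
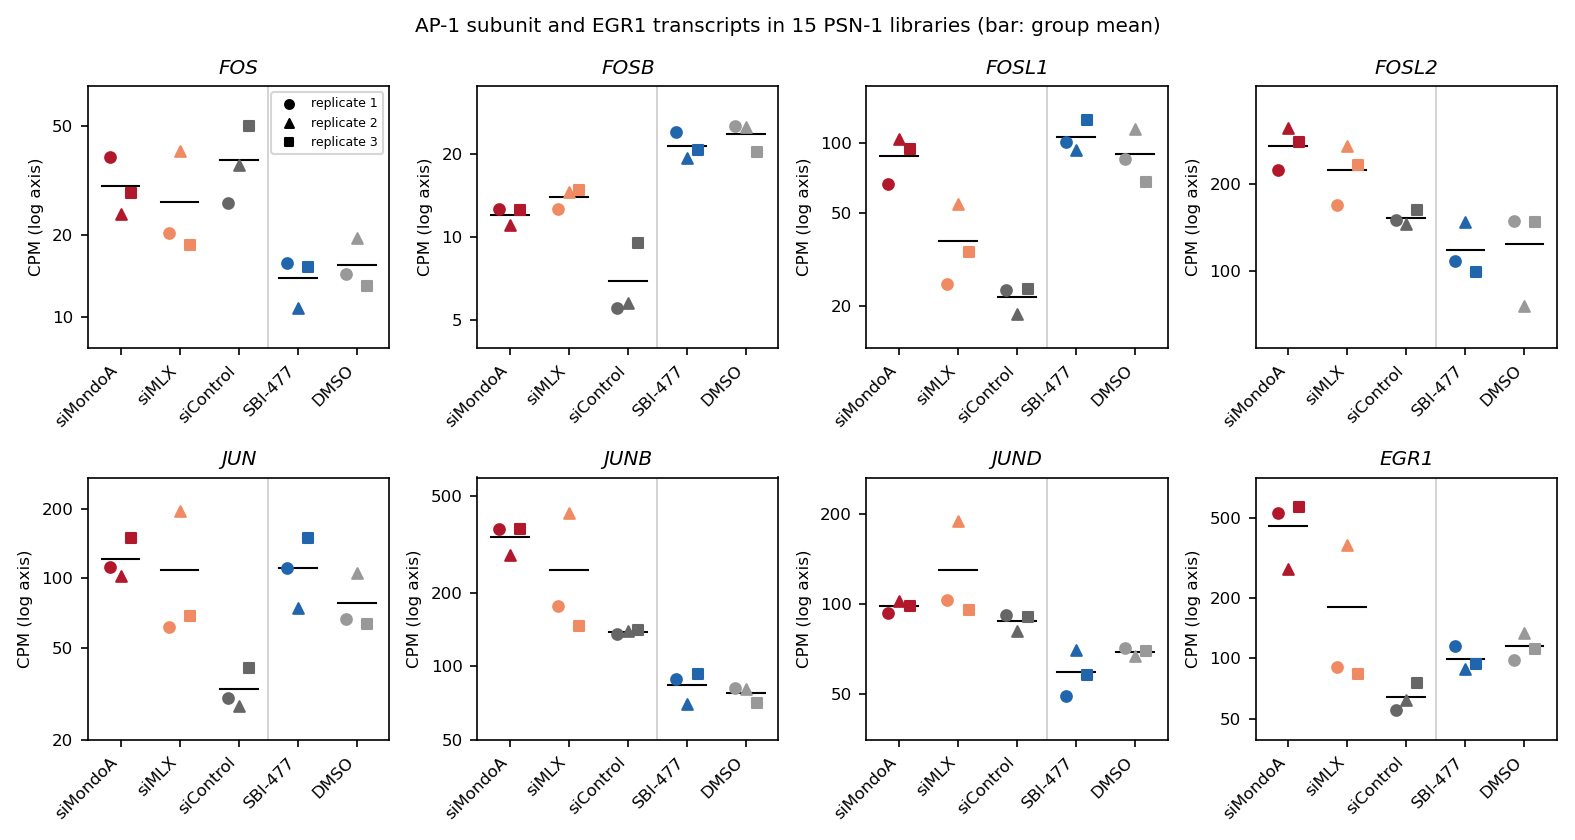
Level of each AP-1 subunit and EGR1 in every library, in CPM on a log axis, by group; points are libraries, their shape gives the replicate number, and the bar is the group mean. The 3 siMondoA libraries of EGR1 lie between 279 and 569 CPM, above all siControl libraries at 55.1 to 75.6 CPM, while siMLX replicate 2 lies apart from the other 2 siMLX libraries for EGR1, JUN and JUNB.

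Within the Fos family, FOSL1 had 67, 104 and 94.8 CPM in siMondoA libraries, against 23.5, 18.4 and 23.7 CPM in siControl libraries. The groups were far apart, and the log2 fold change was 2.01 ± 0.27 (SE; adjusted p = 0.0012). FOSL2, which encodes FRA-2 and has the highest Fos family level per kilobase in siControl, had 223, 313 and 280 CPM in siMondoA libraries and 150, 145 and 162 CPM in siControl libraries. Its groups did not overlap, and it rose by 0.84 ± 0.18 (adjusted p = 0.00831). FOSB, the lowest of the 8 per kilobase, had 12.6, 11 and 12.5 CPM after siMondoA, against 5.51, 5.74 and 9.46 CPM in siControl. Every siMondoA library exceeded the highest siControl library, though siControl replicate 3 came close, and the log2 fold change was 0.79 ± 0.21 (adjusted p = 0.0211). FOS, whose product gave the family its name, had 38.6, 24 and 28.5 CPM after siMondoA and 26.3, 36.1 and 50.2 CPM in siControl. The groups overlapped, and the difference of -0.31 ± 0.32 did not pass (adjusted p = 0.495, 95% interval -1.02 to 0.4).

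In the Jun family, JUN had 112, 102 and 150 CPM in siMondoA libraries and 30.4, 28 and 41 CPM in siControl libraries. All siMondoA libraries were above all siControl libraries, and the log2 fold change was 1.87 ± 0.39 (adjusted p = 0.00812). JUNB had 366, 288 and 367 CPM after siMondoA, against 136, 140 and 141 CPM in siControl. The siControl libraries lay close together and the siMondoA libraries well above them (log2 fold change 1.29 ± 0.33, adjusted p = 0.0169). Of its 1820 exon bases 259 are shared with HOOK2 on the other strand, and reads from there cannot be told apart since the strand setting of the counting is not given. HOOK2 itself was at 17.6 ± 2.47 CPM after siMondoA and 17.3 ± 1.88 CPM in siControl (SD, n = 3 each). JUND, often the most steadily expressed Jun gene, had 93.4, 102 and 98 CPM after siMondoA and 91.6, 80.8 and 90.4 CPM in siControl. Its groups did not overlap, but the gap was small (log2 0.16 ± 0.22, adjusted p = 0.608, 95% interval -0.32 to 0.64).

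EGR1 showed the highest fold change of the 8. It had 528, 279 and 569 CPM in siMondoA libraries, against 55.1, 62 and 75.6 CPM in siControl libraries. Replicate 2 was the lowest of the siMondoA libraries and still far above every siControl library. The log2 fold change was 2.84 ± 0.53 (edgeR adjusted p = 0.005). In such bulk samples, a change in the RNA per cell and a change in the share of cells that hold it cannot be told apart.

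The calls of EGR1, FOSL1, FOSL2 and JUN were kept when any one of the libraries compared was left out. FOSB lost its call without siControl replicate 1, siControl replicate 2 or siMondoA replicate 3 (edgeR adjusted p 0.0766, 0.0849 and 0.0671), and JUNB lost its call without siControl replicates 1, 2 or 3 or siMondoA replicate 3 (adjusted p 0.0594, 0.0613, 0.0515 and 0.0523). Leaving out siMLX replicate 2, which enters the estimate of the spread only, kept all 6 calls. Over these 7 fits the log2 fold change of JUNB was 1.23 to 1.4 (edgeR adjusted p 8.7e-05 to 0.0613). That of FOSB was 0.65 to 1.09 (adjusted p 0.00716 to 0.0849).

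**Figure D2:**
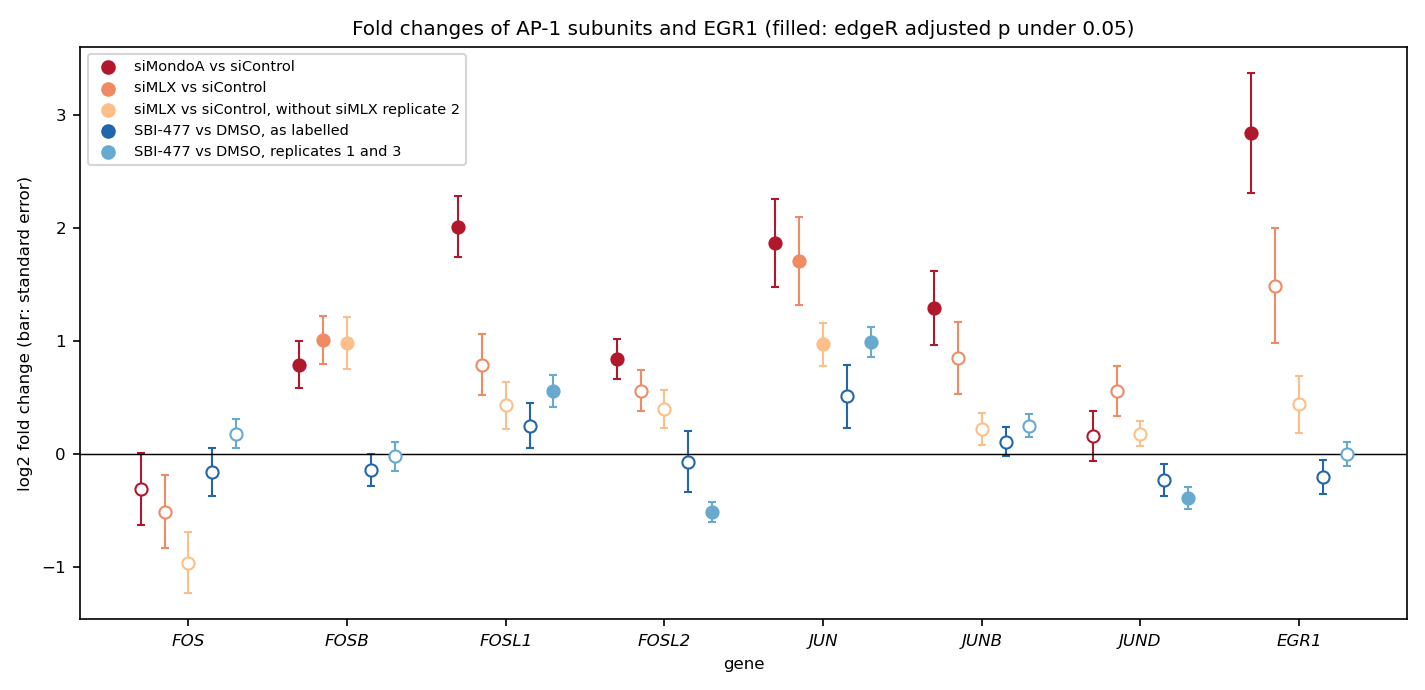
log2 fold change of each member, with its standard error as a bar, for siMondoA and siMLX against siControl and SBI-477 against DMSO; filled points have an edgeR adjusted p under 0.05. After siMondoA 6 of 8 points are filled and EGR1 stands highest at 2.84, after siMLX FOSB and JUN are filled, and for SBI-477 no point is filled as labelled and 4 are with replicates 1 and 3 alone.

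After siMLX, FOSB and JUN were higher than in siControl and the other 6 members did not pass. Of all genes tested 3.72% were called higher. FOSB had 12.6, 14.5 and 14.8 CPM in siMLX libraries, against 5.51, 5.74 and 9.46 CPM in siControl libraries (log2 fold change 1.01 ± 0.21, adjusted p = 0.0185). This was an even rise over the 3 siMLX libraries. JUN had 61.8, 195 and 68.4 CPM after siMLX and 30.4, 28 and 41 CPM in siControl (1.71 ± 0.39, adjusted p = 0.0267). Its highest value came from siMLX replicate 2, and the other siMLX libraries were also above all siControl libraries. The calls were not kept in every fit that left out a library. JUN lost its call without siControl replicates 1, 2 or 3 (edgeR adjusted p 0.108, 0.111 and 0.0589), whichever control was dropped. FOSB lost its call without siControl replicates 1 or 2 or siMLX replicate 3 (0.0803, 0.0848 and 0.0628). Fewer of all genes tested were called too in each fit with a library left out, as given in the last section.

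Among the members that did not pass after siMLX, all but FOS had every siMLX library above every siControl library. How many of all genes separate in this way was not counted. The lowest siMLX value lay close to the highest siControl value for JUNB (146 and 141 CPM), JUND (95.6 and 91.6 CPM) and FOSL1 (24.9 and 23.7 CPM). EGR1 had 90.3, 368 and 83.7 CPM in siMLX libraries, against 55.1, 62 and 75.6 CPM in siControl (log2 fold change 1.49 ± 0.51, edgeR adjusted p = 0.0964). JUNB had 177, 426 and 146 CPM after siMLX and 136, 140 and 141 CPM in siControl (0.85 ± 0.32, adjusted p = 0.129). In both genes replicate 2 stood far above the other siMLX libraries, which lay near the controls. FOSL1 had 24.9, 54.6 and 34.1 CPM after siMLX and 23.5, 18.4 and 23.7 CPM in siControl (0.79 ± 0.27, adjusted p = 0.0918). FOSL2 had 169, 270 and 233 CPM after siMLX and 150, 145 and 162 CPM in siControl (0.56 ± 0.18, adjusted p = 0.0762). JUND had 103, 189 and 95.6 CPM after siMLX and 91.6, 80.8 and 90.4 CPM in siControl (0.56 ± 0.22, adjusted p = 0.133). For these genes too, replicate 2 gave the highest siMLX value. FOS had 20.3, 40.6 and 18.4 CPM after siMLX and 26.3, 36.1 and 50.2 CPM in siControl, with overlapping groups (-0.51 ± 0.32, adjusted p = 0.354).

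Without siMLX replicate 2, the library that stood apart in the stress response genes, FOSB and JUN still passed, at 0.98 ± 0.23 and 0.97 ± 0.19 on the log2 scale (edgeR adjusted p = 0.0345 and 0.0172), while 2.59% of all genes were called higher. The log2 fold change of EGR1 was then 0.44 (adjusted p = 0.336), that of JUNB 0.22 and that of FOSL1 0.43, none of which passed. FOS had a log2 fold change of -0.96 in this fit (adjusted p = 0.0601). Without siMLX replicate 1, FOSL1 and FOSL2 passed as well (1.02 and 0.72, adjusted p = 0.0373 and 0.0277). With the replicate number as a block, 3 members passed and 6.52% of all genes were called higher: FOSB (adjusted p = 0.00864), JUN (0.0236) and FOSL2 (0.53 ± 0.13, adjusted p = 0.03). In the authors' deposited table, the siMLX values were 1.05 for FOSB (adjusted p = 0.00236), 0.73 for FOSL1 (0.0344), 0.53 for FOSL2 (0.0129), 1.5 for JUN (0.0829) and 1.12 for EGR1 (0.314).

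Set directly against each other, siMondoA and siMLX differed for FOSL1 alone among the members, which was 2.33-fold higher after siMondoA (log2 1.22 ± 0.26, edgeR adjusted p = 0.015). Of all genes tested 6.66% were called higher after siMondoA than after siMLX. The FOSL1 groups did not overlap, but its call was lost without siMLX replicate 3 (adjusted p = 0.0625) or siMondoA replicate 3 (adjusted p = 0.0543). EGR1 had a difference of 1.34 ± 0.5 that did not pass (adjusted p = 0.104), with siMLX replicate 2, at 368 CPM, above siMondoA replicate 2, at 279 CPM. Without siMLX replicate 2, 4 members were higher after siMondoA: EGR1 (2.4, adjusted p = 0.000576), FOSL1 (1.58, 0.00114), JUNB (1.08, 0.000996) and JUN (0.9, 0.00944). In that fit 12.6% of all genes were called higher. FOSB, with a difference of -0.22 ± 0.2 (adjusted p = 0.503, 95% interval -0.67 to 0.24), was the member whose siMondoA libraries all lay below its siMLX libraries, by a small margin.

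**Figure D3:**
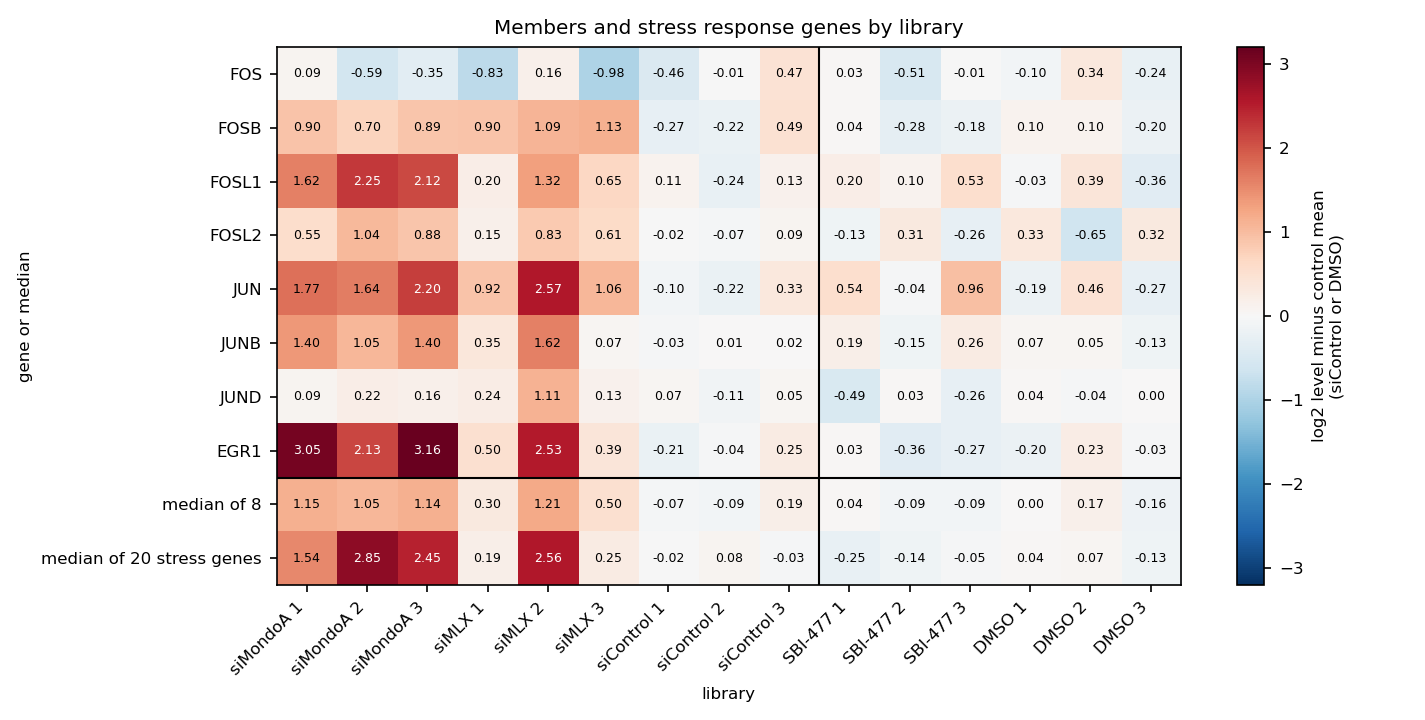
log2 level of each member in each library minus the mean of the control group of its experiment (siControl or DMSO), with the median of the 8 members and the median of 20 stress response genes in the bottom rows. siMLX replicate 2 has a member median of 1.21 and a stress gene median of 2.56, as high as siMondoA libraries (1.05 to 1.15 and 1.54 to 2.85), while the drug libraries stay within 0.25 of their control mean in both rows.

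The member median by library was 1.15, 1.05 and 1.14 in siMondoA libraries, 0.3, 1.21 and 0.5 in siMLX libraries, and -0.07, -0.09 and 0.19 in siControl libraries, on the log2 scale set to the siControl mean. Among the siMLX libraries, the one with the high stress gene median was also the one with the high member median. Among the siMondoA libraries the order differed, since replicate 1 had the lowest stress gene median, 1.54, and the highest member median. Of the 20 stress response genes 17 were called higher after siMondoA, against 14.2% of all genes, and 1 was after siMLX, against 3.72%. The 17 became 7 without siControl replicate 1 or 2, 8 without siControl replicate 3 and 12 without siMondoA replicate 2 or 3. The 1 after siMLX became 5 with the replicate block, 6 without siMLX replicate 1, 2 without siMLX replicate 3, and 0 without siMLX replicate 2 or any siControl library. Their part in the members' values was not tested.

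SBI-477 gave no called change in any member as labelled. Of 14023 genes tested 0% were called higher and 0% lower, and DESeq2 called 0 too, while 409 genes and 0 members had an unadjusted p under 0.05. JUN had 111, 74.2 and 149 CPM in SBI-477 libraries, against 66.7, 105 and 63.5 CPM in DMSO libraries (log2 fold change 0.51 ± 0.28, 95% interval -0.13 to 1.14). Its lowest SBI-477 value and its highest DMSO value both came from replicate 2. FOSL1 had 101, 93.6 and 126 CPM after SBI-477 and 85.9, 115 and 68 CPM in DMSO (0.25 ± 0.2, interval -0.21 to 0.72). FOSL2 had 108, 147 and 98.7 CPM after SBI-477 and 149, 75.1 and 147 CPM in DMSO (-0.07 ± 0.27, interval -0.68 to 0.54). In these genes too, replicate 2 of each group lay toward the values of the other group.

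EGR1 had 116, 88.8 and 94.4 CPM after SBI-477 and 98.8, 134 and 112 CPM in DMSO, a difference of -0.2 ± 0.15 with an interval of -0.55 to 0.14. JUNB had 88.7, 70 and 92.8 CPM after SBI-477 and 81.6, 80.5 and 71.1 CPM in DMSO (0.11 ± 0.13). JUND had 49, 70.2 and 57.6 CPM after SBI-477 and 70.8, 67 and 69.2 CPM in DMSO (-0.23 ± 0.14). The groups overlapped in all 3 of these genes. FOSB had 23.9, 19.2 and 20.6 CPM after SBI-477 and 25.1, 25 and 20.3 CPM in DMSO (-0.14 ± 0.14), and FOS had 15.8, 10.8 and 15.3 CPM after SBI-477 and 14.4, 19.5 and 13 CPM in DMSO (-0.16 ± 0.21). The edgeR adjusted p was 1 for every member.

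With both drug libraries numbered 2 left out, which leaves 2 libraries a group, 2 members were higher and 2 lower after SBI-477, where 9.07% of all genes were called higher and 9.02% lower. JUN was at 111 and 149 CPM after SBI-477 and at 66.7 and 63.5 CPM in DMSO (log2 fold change 0.99 ± 0.13, edgeR adjusted p = 0.00208). FOSL1 was at 101 and 126 CPM after SBI-477 and at 85.9 and 68 CPM in DMSO (0.56 ± 0.14, adjusted p = 0.0218). Both transcripts were higher in each SBI-477 library than in each DMSO library. FOSL2 was at 108 and 98.7 CPM after SBI-477 and at 149 and 147 CPM in DMSO (-0.51 ± 0.09, adjusted p = 0.00587), and JUND at 49 and 57.6 CPM after SBI-477 and at 70.8 and 69.2 CPM in DMSO (-0.39 ± 0.1, adjusted p = 0.0246). EGR1 showed a log2 difference of 0 (adjusted p = 0.992) in this fit. The authors' deposited table gave 0.85 for JUN (adjusted p = 1.65e-07), 0.48 for FOSL1 (0.00665), -0.64 for FOSL2 (4.74e-05), -0.27 for JUND (0.131) and 0.22 for EGR1 (0.29).

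The SBI-477 effect was then set against the siMondoA effect as a difference of differences over all 15 libraries. It was lower for EGR1 by 3.02 ± 0.62 on the log2 scale (edgeR adjusted p = 0.0118), for FOSL1 by 1.75 ± 0.36 (adjusted p = 0.0128) and for FOSB by 0.92 ± 0.27 (adjusted p = 0.0477). These are 3 of 8 members, where 3.83% of 13681 genes were called lower. JUNB had a difference of -1.17 ± 0.4 (adjusted p = 0.0815), JUN of -1.35 ± 0.53 (0.124) and FOSL2 of -0.89 ± 0.33 (0.109), none of which passed. The calls of EGR1 and FOSL1 were kept in all 12 fits that left out one library, and that of FOSB in 2 of them. The 10 fits without a call for FOSB were those without any of the SBI-477 or siMondoA libraries, DMSO replicates 1 or 2 or siControl replicates 1 or 2, with adjusted p up to 0.12. Without DMSO replicate 2 alone, FOSL2 passed too (-1.14, adjusted p = 0.0203). Without both drug libraries numbered 2, the 3 called members were EGR1 (-2.81, adjusted p = 0.0307), FOSL1 (-1.43, 0.0332) and FOSL2 (-1.33, 0.00892), with 5.52% of all genes called lower, and FOSB did not pass (0.0939). The experiments also differ in transfection and in depth, which cannot be told apart from this contrast.

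Per kilobase of exon, JUNB led the siRNA experiment. In siMondoA libraries it stood at 187 ± 25.1 CPM per kilobase (SD, n = 3), EGR1 followed at 146 ± 49.7, and their ranges overlapped. Within each siMondoA library JUNB was above EGR1. JUND (52.5), FOSL1 (46.9), FOSL2 (38) and JUN (34.3) came next, each overlapping its neighbour, and FOS (9.37) and FOSB (2.17) were last and apart. In siControl libraries JUNB stood at 76.3 ± 1.51 and JUND at 47 ± 3.17, each apart from the next gene. FOSL2 (21.3) and EGR1 (20.5) overlapped, as did FOSL1 (11.6), FOS (11.6) and JUN (9.36) in their order, and FOSB (1.24) was last. EGR1 thus had rank 2 after siMondoA and rank 4 in siControl. After siMLX the order was JUNB (137), JUND (69.3), EGR1 (57.5), FOSL2 (31.3), JUN (30.6) and FOSL1 (20.1), each overlapping its neighbour, then FOS (8.15) and FOSB (2.51).

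The drug experiment had another order. In SBI-477 libraries FOSL1 stood at 56.6 ± 9.04 CPM per kilobase and JUNB at 46.1 ± 6.65, overlapping, followed by EGR1 (31.8), JUND (31.6) and JUN (31.4), which also overlapped, then FOSL2 (16.5), FOS (4.31) and FOSB (3.82). In DMSO libraries FOSL1 stood at 47.5 ± 12.6 and JUNB at 42.7 ± 3.13, followed by JUND (37.1), EGR1 (36.6), JUN (22.1), FOSL2 (17.3), FOS (4.83) and FOSB (4.23). FOSL1 and JUNB overlapped in DMSO too, while in siControl FOSL1 overlapped FOS and stood apart from JUNB. Within libraries, FOSL1 exceeded JUNB in each SBI-477 library (53.4, 49.6 and 66.8 against 48.7, 38.5 and 51). In DMSO, FOSL1 was at 45.5, 60.9 and 36 against 44.8, 44.2 and 39.1 for JUNB, so their order differed between DMSO libraries. These levels come from tables normalized separately, and no test was made across the experiments.

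**Figure D4:**
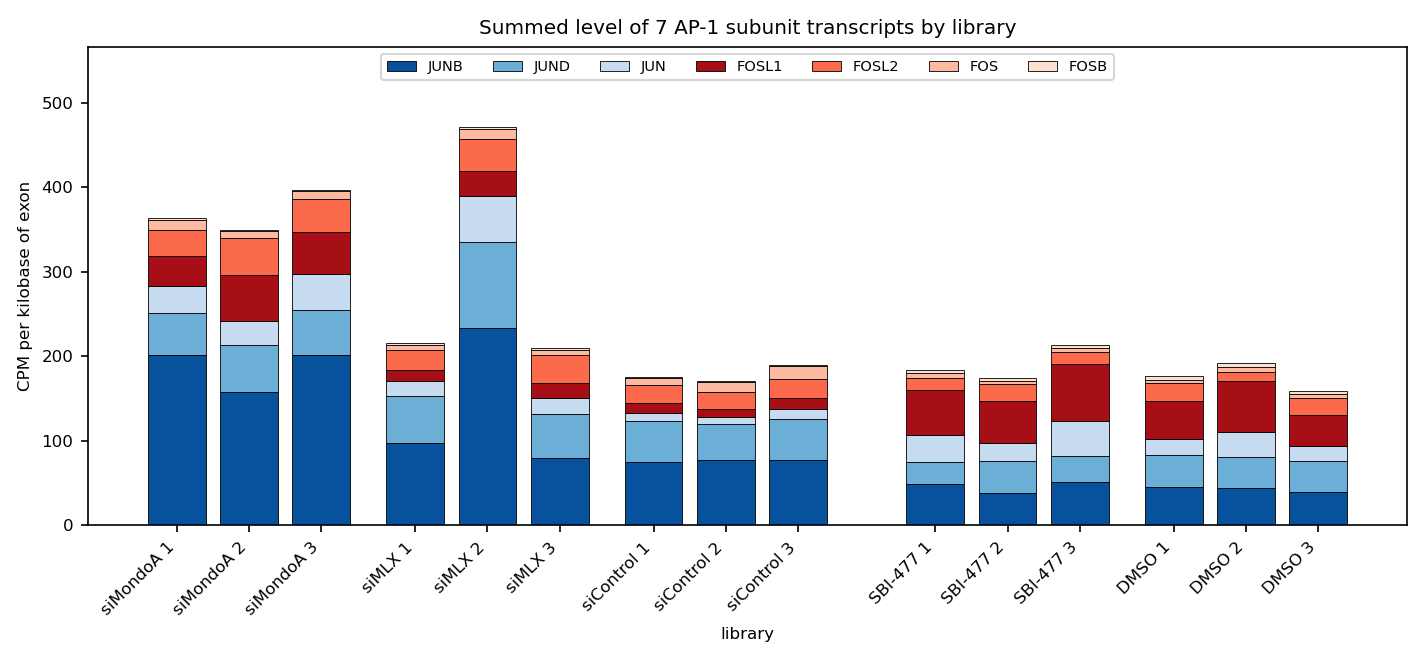
Summed level of the 7 AP-1 subunit transcripts in each library, in CPM per kilobase of exon, stacked by gene. The siMondoA bars reach 350 to 397 and siMLX replicate 2 reaches 472, against 170 to 190 in siControl and 158 to 213 in the drug libraries, and the JUNB segment is the largest in each siRNA group.

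Summed over the 7 AP-1 subunits, the transcripts came to 370 ± 24.1 CPM per kilobase after siMondoA, 299 ± 150 after siMLX and 178 ± 10.4 in siControl (SD, n = 3 each), and to 190 ± 20.3 after SBI-477 and 176 ± 17 in DMSO. The wide spread after siMLX came from replicate 2, at 472, against 216 and 210 in replicates 1 and 3. These sums and the shares below describe RNA levels, with no test, and say nothing of protein or dimers. JUNB took 50.4% ± 5.06 of the sum after siMondoA, 44.3% ± 5.75 after siMLX and 42.8% ± 2.16 in siControl. FOSL1 took 12.7% ± 2.97 after siMondoA, 6.96% ± 1.45 after siMLX and 6.5% ± 0.719 in siControl. JUND took 14.2% ± 1.31 after siMondoA, 23.9% ± 2.22 after siMLX and 26.4% ± 1.5 in siControl. The mean JUND share was thus lowest after siMondoA among the siRNA groups. FOS took 2.53% ± 0.64 after siMondoA, 2.75% ± 0.138 after siMLX and 6.46% ± 1.76 in siControl. The Fos family as a whole took 26.1% ± 4.41 after siMondoA, 22.1% ± 5.49 after siMLX and 25.6% ± 1.74 in siControl, and 42.7% ± 1.29 after SBI-477 and 42% ± 1.18 in DMSO.

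Over the 9 siRNA libraries, the log2 levels of JUNB and EGR1 had a Pearson r of 0.972, those of FOSL1 and FOSL2 of 0.933 and those of JUN and JUNB of 0.932. FOS had r from -0.197 to 0.211 with the other members. Over the 6 drug libraries JUNB and EGR1 had an r of 0.111 and FOSL1 and FOSL2 of -0.785. These values share libraries and follow the groups, so they describe the pattern of levels only. Among all genes that averaged 4 CPM or more, those most like EGR1 over the siRNA libraries were C7orf43 (r = 0.984), SLC25A25 (0.982) and CSRNP1 (0.976), with r of -0.233, 0.385 and 0.729 over the drug libraries. Most like JUNB were CSRNP1 (0.99), BBC3 (0.983) and NCOA7 (0.981). Most like FOSL1 were SFMBT1 (0.992), TAOK3 (0.987) and TMCC3 (0.987). Most like JUN were C16orf87 (0.988), ZNF280C (0.986) and MIDN (0.979). CSRNP1 was listed for both EGR1 and JUNB.

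Genes around the members were described from lists of the pathway. Of 19 measured basic leucine zipper partners and relatives, 10 were higher and 1 lower after siMondoA, with a median log2 fold change of 0.59, where 14.2% of all genes were called higher and 12.9% lower. ATF4, the central factor of the integrated stress response, rose by 1.29 ± 0.28 (edgeR adjusted p = 0.00948). CREB5, a CRE binding relative that can pair with JUN, rose by 3.01 ± 0.68 (adjusted p = 0.0111), and the small Maf protein gene MAFG rose by 0.66 ± 0.14 (adjusted p = 0.0098). Of the 11 genes of the EGR family, its corepressors and SRF factors, 2 were higher, namely EGR2 and EGR3, which bind the same GC-rich site as EGR1. A share of 2 in 11 is near the 14.2% of all genes. EGR2 had 8.52, 13.2 and 11.5 CPM in siMondoA libraries and 1.42, 3.02 and 1.43 CPM in siControl libraries (2.49 ± 0.39, adjusted p = 0.00227), and EGR3 rose by 0.82 ± 0.25 (adjusted p = 0.0351). SRF itself had a log2 fold change of 0.35 ± 0.12 that did not pass (adjusted p = 0.0513).

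Other immediate early genes were mostly higher after siMondoA. Of 17 measured, 10 were higher and 1 was lower, with a median log2 fold change of 1.1, where 14.2% of all genes were called higher and 12.9% lower. IER3 had 417, 485 and 581 CPM in siMondoA libraries, against 105, 132 and 104 CPM in siControl libraries (2.12 ± 0.4, edgeR adjusted p = 0.00525). KLF6, a zinc finger factor, rose by 1.56 ± 0.29 (adjusted p = 0.00499), and ZFP36, whose protein drives decay of cytokine mRNAs, rose by 1.26 ± 0.19 (adjusted p = 0.00181). BTG2, an antiproliferative gene also known as a p53 target, fell by 1.11 ± 0.22 (adjusted p = 0.00586). BTG2 was the exception in direction among those called.

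The feedback genes of ERK signalling were divided. Of 14 measured, 5 were higher and 1 lower after siMondoA, with a median log2 fold change of 0.11, where 14.2% of all genes were called higher and 12.9% lower. DUSP1, a phosphatase of the stress kinases, had 98.7, 214 and 235 CPM in siMondoA libraries and 38.7, 41.3 and 31.8 CPM in siControl libraries (2.29 ± 0.67, edgeR adjusted p = 0.0301). DUSP5, a nuclear ERK phosphatase, rose by 1.27 ± 0.36 (adjusted p = 0.0263). Of the inhibitors of Ras and ERK signalling, SPRED1 rose by 0.53 ± 0.09 (adjusted p = 0.00294) and SPRY1 fell by 0.64 ± 0.12 (adjusted p = 0.00479). Of 13 measured JNK and p38 kinase genes 2 were higher, MAPK13 by 0.62 ± 0.17 and MAP2K4 by 0.37 ± 0.12 (adjusted p = 0.0218 and 0.0441), a share near the 14.2% of all genes.

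Of 20 measured genes reported elsewhere as AP-1 targets, 13 were higher and 0 lower after siMondoA, with a median log2 fold change of 0.93. Over all genes, 14.2% were called higher and 12.9% lower. AREG, a ligand of the EGF receptor, had 192, 312 and 361 CPM in siMondoA libraries, against 25.9, 20.8 and 17.5 CPM in siControl libraries (3.76 ± 0.49, edgeR adjusted p = 0.00104). The groups were far apart. VEGFA, an angiogenic growth factor, rose by 2.54 ± 0.46 (edgeR adjusted p = 0.00411). Many genes of these lists answer to other factors as well, VEGFA among them, and ATF5 is both in the partner list and in the stress response list. Each count was the same or higher without siMLX replicate 2, at 12 (partners), 5 (EGR family), 13 (immediate early), 5 (ERK feedback), 3 (JNK and p38) and 16 (targets) called higher. Without a siControl library or siMondoA replicate 2 or 3 the counts were 4 to 5 partners, 1 to 2 EGR family genes (2 in the fit of all libraries, 4 with the replicate block or by DESeq2), 7 to 9 immediate early genes, 1 to 2 ERK feedback genes, 0 to 1 kinase genes and 7 to 10 targets. The number of genes called among all tested also changed between these fits, and whether the lists shifted more than all genes was not tested.

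**Figure D5:**
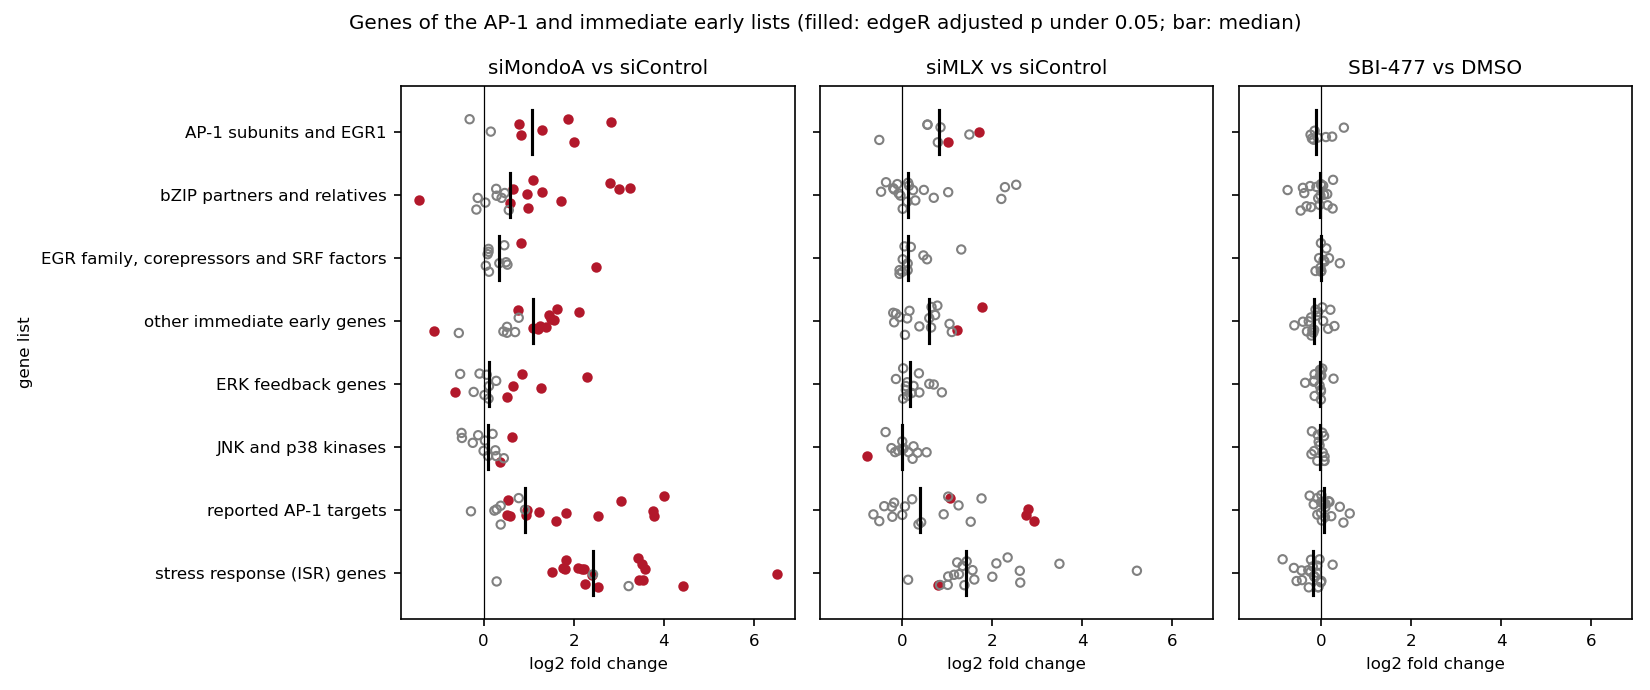
log2 fold change of every measured gene of the members and the 7 lists, for siMondoA against siControl, siMLX against siControl and SBI-477 against DMSO as labelled; filled points have an edgeR adjusted p under 0.05 and the bar is the list median. After siMondoA the bars of the members (1.06), the other immediate early genes (1.1) and the stress response genes (2.42) lie right of 0, and in the SBI-477 panel no point is filled.

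After siMLX, the lists held few calls, where 3.72% of all genes were called higher. ZFP36 rose by 1.22 ± 0.19 (edgeR adjusted p = 0.00516) and NR4A1, a nuclear receptor, by 1.76 ± 0.34 (adjusted p = 0.0133), the 2 called of 17 immediate early genes. Of 20 AP-1 targets 4 were higher: AREG by 2.75 ± 0.47 (adjusted p = 0.00881), IL6 by 2.93 ± 0.75 (0.0405), TIMP1 by 1.07 ± 0.2 (0.0129) and the matrix proteoglycan gene DCN, also one of the fibroblast markers, by 2.8 ± 0.37 (0.0027). AREG had 73.4, 273 and 83.4 CPM in siMLX libraries, so that here too replicate 2 was the highest. Without that library IL6 rose by 1.11 ± 0.24 (edgeR adjusted p = 0.0243), AREG by 1.88 ± 0.24 (0.00276), NR4A1 by 1.24 ± 0.22 (0.0131), ZFP36 by 0.98 ± 0.14 (0.00472), TIMP1 by 0.92 ± 0.21 (0.0275) and DCN by 2.83 ± 0.4 (0.00375). Without a siControl library, 1 to 2 targets and 1 to 2 immediate early genes were called higher. No partner gene, EGR family gene or ERK feedback gene was called, and of the kinases MAPK14, which encodes p38 alpha, fell by 0.78 ± 0.18 (adjusted p = 0.0267), a call lost without siControl replicate 1 or 3 or siMLX replicate 3. With the replicate block, 2 partners were called higher and 1 lower, 1 EGR family gene higher, 1 kinase gene higher and 1 lower, and 5 targets higher and 2 lower, with 6.52% of all genes called higher. NR4A1, IL6, TIMP1, DCN and MAPK14 were named after their values were seen.

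After SBI-477 as labelled, no gene of the 7 lists was called. With both drug libraries numbered 2 left out, 10 of 20 AP-1 targets were called higher and 0 lower, with a median log2 fold change of 0.44, against -0.01 over all genes. In this fit 9.07% of all genes were called higher and 9.02% lower. MMP14, a membrane matrix protease, rose by 1.72 ± 0.21 (edgeR adjusted p = 0.00156) and MMP1, a collagenase, by 1.15 ± 0.18 (0.00402). AREG was not among the 10. Of 17 other immediate early genes 2 were higher and 6 lower, and CTGF, a matricellular gene, fell by 1.57 ± 0.14 (adjusted p = 0.000527). Of 20 stress response genes 2 were higher and 5 lower, with a median of -0.11. The share called higher in these 2 lists was near that of all genes. Of 19 partners 3 were higher and 2 lower, and of 14 ERK feedback genes 1 was higher and 1 lower. In the EGR family list 1 gene was higher, and in the kinase list 1 was lower. MMP14, MMP1 and CTGF were named after their values were seen.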

How the data were processed

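RNA sequencing libraries of PSN-1 cells were grouped by their titles. Per the labels' protocols, Kapa libraries were sequenced as paired 25-base reads. The submitters' processing notes name TopHat2 2.1.0, bcl2fastq 1.8.4, edgeR (with no version) and HTSeq 0.6.1, with hg38 and mm10 as builds. The strand setting and the annotation are not given in the sources used here. For each gene the authors deposited its raw count in every library. Their own log2 fold change, p-value and adjusted p-value stand beside the counts, per the file headers. The tool for those columns is not stated. The siRNA columns were recovered as labelled by DESeq2 with replicate in the model.

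The count analysis used edgeR 4.0.16 under R 4.3.3 (filterByExpr, TMM, quasi-likelihood test, Benjamini-Hochberg over all genes tested, threshold 0.05), with the 9 siRNA libraries in one fit, the 6 drug libraries in another and all 15 for the difference of effects. DESeq2 1.42.0 was an alternative. Standard errors were derived from the fold change and its F statistic. CPM used TMM factors, and log2 CPM a prior count of 2. Levels per kilobase used union exon lengths of GENCODE v29. The scripts were tested on simulated data. No pair of replicates agreed within sampling noise (lowest chi-square per gene 7.93). Plots were made in Python 3.11.15 by matplotlib 3.10.9.

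The replicate numbers were checked for pairing by correlating, over genes, the deviations of same-numbered libraries from their group means. For siMLX and siControl r was 0.268, 0.188 and 0.359, and blocked values of called members are given for that comparison. For siMondoA and siControl r was 0.136, 0.0881 and 0.0084, and for siMondoA and siMLX 0.534, 0.447 and -0.109. For these comparisons only counts of calls with the block are given. Differently numbered siRNA libraries of different groups had r from -0.609 to 0.317. In the drug libraries r was negative in every same-numbered pair. The members and lists were chosen with earlier results of these data known. Named genes were the 8 members, MLXIP and MLX, the genes of each list with the smallest adjusted p (up to 4 for siMondoA against siControl, up to 2 for SBI-477 against DMSO), and the 3 genes most like each member by Pearson r; some are not reported here, and others are named as chosen after their values were seen.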

Additional observations from a re-analysis of the deposited data

Results flagged for a closer look

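The SBI-477 effect minus the siMondoA effect was tested directly and differed from 0 for 3 members. It was -3.02 ± 0.62 on the log2 scale for EGR1 (edgeR adjusted p = 0.0118), -1.75 ± 0.36 for FOSL1 (adjusted p = 0.0128) and -0.92 ± 0.27 for FOSB (adjusted p = 0.0477). All 3 siMondoA libraries lay above all 3 siControl libraries in each of these genes, while the SBI-477 and DMSO libraries overlapped as labelled. FOSL2, JUN, JUND and JUNB, which were not called, had this pattern too, so it does not set the 3 genes apart. Without both drug libraries numbered 2, FOSL1 did not overlap and was higher after SBI-477 (0.56, adjusted p = 0.0218). The difference of effects then still passed for EGR1 and FOSL1 and not for FOSB. With 1 library left out, the FOSB call was kept in 2 of 12 fits, and those of EGR1 and FOSL1 in all 12. The control levels differed between the experiments. FOSL1 averaged 89.6 CPM in DMSO, 21.9 CPM in siControl and 88.5 CPM after siMondoA. FOSB averaged 23.5, 6.9 and 12 CPM in these groups, and EGR1 115, 64.2 and 459 CPM. The part of these levels in the difference of effects was not tested.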

How the results depend on the processing

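The 6 members called after siMondoA stayed at 6 under DESeq2's Wald test, its size factors, no filter on low counts, the 6 compared libraries alone and the replicate block, and numbered 4 to 6 when a library was left out. After siMLX, 4 were called by the Wald test, 3 with the replicate block, and 0 to 4 with a library left out. Between siMondoA and siMLX, 0 were called with the 6 libraries alone, 1 with the replicate block and 0 to 4 with a library left out. For SBI-477, 0 were called with the replicate block and 4 with both libraries numbered 2 left out, where FOS (0.18) and EGR1 (0) changed sign. For the difference of effects 3 were called with the replicate block. Of members that did not pass in the main fit, leaving out a library gave log2 ranges across 0 between siMondoA and siMLX for JUN (-0.11 to 0.9) and FOS (-0.01 to 0.65), for SBI-477 in FOSL2 (-0.33 to 0.08) and FOS (-0.28 to 0.02), and for the difference of effects in FOS (-0.1 to 0.37); the cause was not tested.

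Genes called among all tested numbered 3532 after siMondoA (4551 with the replicate block), 1094 after siMLX (1815 with the block, 1686 by the Wald test), 1673 between them (2606 with the block, 706 with the 6 libraries alone) and 1049 for the difference of effects (1772 by the Wald test, 1595 without the drug libraries numbered 2). With a library left out they ranged from 1745 to 4333, 254 to 833, 670 to 2970 and 423 to 1680. Same-numbered deviations correlated at -0.555 to -0.243 in the drug libraries and at -0.109 to 0.534 in the siRNA libraries. The labels do not say what a shared number marks, so whether same-numbered siRNA libraries are paired is not settled. Using the longest transcript in place of the union of exons kept 6 of 8 ranks in siMondoA and siControl and all 8 in the other groups.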
